A study of Mus musculus with 4 samples.

Results

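The genes described here are 56 listed mouse genes for potassium channel subunits, taken from 21924 protein-coding genes of the reference annotation. They comprise 8 Kcna genes, 6 genes of the Kcnb, Kcnc and Kcnd families, 10 genes of the silent Kcnf, Kcng, Kcns and Kcnv families, 10 Kcnh and Kcnq genes, 12 Kcnj genes and 10 Kcnk genes. The list is not the whole channel superfamily, since 21 further pore-forming genes and 25 auxiliary subunit genes were kept apart for comparison. A gene was called marked in a library when the authors' peak table paired its symbol with an H3K27me3 peak at a distance of at most 3000 bp.

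H3K27me3 was profiled by CUT&RUN, in which an antibody tethers a nuclease that releases the DNA around the modified histones, in erythro-myeloid progenitors (EMPs) of the E10.5 yolk sac (YS). EMPs are short-lived blood progenitors that arise from endothelium of the YS. One H3K27me3 library was made from 500 EMPs and 1 from 15000 EMPs, each with an IgG library that was not used here. Both came from C57BL/6 embryos whose genotype label joins Ezh2fl/fl; Tie2-Cre+/+ with the words wild type. They were read as wild type cells, as the study names them, so that no group without Ezh2 entered. Tie2-Cre acts in endothelium and the cells that arise from it. The 500-EMP library had 17 PCR cycles and 76-bp reads, the 15000-EMP library 16 cycles and 59-bp reads, and each was run on another instrument. The authors called peaks at a stricter p-value threshold with 500 EMPs than with 15000 EMPs. How many embryos were pooled per library is not given in the sources used here. Per the study, the 500-EMP library also had fewer reads, of which a smaller share aligned. Cell number therefore cannot be told apart from depth, alignment, cycles, read length, instrument and threshold. With 1 library per cell number there was no spread between replicates and no test, and every interval below is a 95% Wilson interval over genes or peaks that covers counting error only.

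The files listed 10223 peaks with 500 EMPs and 15282 peaks with 15000 EMPs, without scores or read counts, so the depth behind each peak is not known from them. Of 14 EMP and blood progenitor genes 0 were marked with 500 EMPs and 1, Gata2, with 15000 EMPs. Their intervals (0% to 21.5% and 1.27% to 31.5%) hold the shares of all protein-coding genes (9.66% and 16.6%). These counts therefore do not check the cell label. Among 8 endothelial genes 2 and 4 were marked, among 6 YS endoderm genes 1 and 1, and among 4 primitive erythroid genes 1 and 2. The mark does not measure expression, and in a pool of cells fewer marked cells and less mark per cell cannot be told apart.

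Potassium channels let potassium leave or enter cells along its gradient and so set the resting membrane potential and end action potentials. Voltage-gated subunits (Kcna to Kcnh, Kcnq) assemble as tetramers, silent subunits join them without forming channels of their own, inward rectifiers (Kcnj) conduct best near rest, and tandem-pore subunits (Kcnk) carry the leak current. Most are known from neurons, heart muscle and kidney. H3K27me3 is laid down by Polycomb repressive complex 2, with Ezh2 or Ezh1 as its enzyme, and in mammals it is known to lie over CpG-rich starts of genes that are silent in the cell.

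Because of that background, the starts of 5 members are shown with each CpG in capitals, from RefSeq on GRCm38.p6, 250 bases before to 50 bases after a RefSeq start, read 5′ to 3′ on the strand of the gene. They were chosen after their values were seen, as examples of marked and unmarked starts with many and few CpG, and nothing is drawn from them about the members at large. The window of Kcna2 lies at chr3:107101317-107101616 on the plus strand. That of Kcna3 lies at chr3:107035912-107036211 and that of Kcna10 at chr3:107182893-107183192, both on the plus strand of the same gene cluster. The window of Kcnc2 lies at chr10:112270871-112271170 on the plus strand and that of Kcng3 at chr17:83631846-83632145 on the minus strand.
Kcna2: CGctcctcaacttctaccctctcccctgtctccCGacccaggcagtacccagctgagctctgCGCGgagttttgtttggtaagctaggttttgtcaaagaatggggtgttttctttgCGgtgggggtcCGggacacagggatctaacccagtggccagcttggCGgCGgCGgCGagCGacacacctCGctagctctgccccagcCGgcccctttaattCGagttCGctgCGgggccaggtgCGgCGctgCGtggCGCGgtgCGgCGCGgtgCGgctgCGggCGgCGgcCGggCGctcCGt
Kcna3: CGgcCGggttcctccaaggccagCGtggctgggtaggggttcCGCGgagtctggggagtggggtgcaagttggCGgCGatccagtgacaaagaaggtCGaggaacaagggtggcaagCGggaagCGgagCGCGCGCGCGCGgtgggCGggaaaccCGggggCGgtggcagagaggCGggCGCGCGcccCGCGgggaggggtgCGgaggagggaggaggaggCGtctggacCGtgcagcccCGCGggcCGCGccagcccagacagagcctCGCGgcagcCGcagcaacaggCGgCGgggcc
Kcna10: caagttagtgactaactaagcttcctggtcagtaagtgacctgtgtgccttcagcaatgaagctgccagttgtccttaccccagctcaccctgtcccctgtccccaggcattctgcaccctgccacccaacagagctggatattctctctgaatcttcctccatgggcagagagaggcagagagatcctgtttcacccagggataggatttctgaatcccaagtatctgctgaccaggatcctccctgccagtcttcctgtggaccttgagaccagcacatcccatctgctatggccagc
Kcnc2: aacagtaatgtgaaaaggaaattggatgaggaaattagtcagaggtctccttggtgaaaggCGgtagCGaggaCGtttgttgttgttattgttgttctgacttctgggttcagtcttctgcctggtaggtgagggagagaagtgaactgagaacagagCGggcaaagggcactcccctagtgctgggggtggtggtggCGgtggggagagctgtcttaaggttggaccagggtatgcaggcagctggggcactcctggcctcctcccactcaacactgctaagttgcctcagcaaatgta
Kcng3: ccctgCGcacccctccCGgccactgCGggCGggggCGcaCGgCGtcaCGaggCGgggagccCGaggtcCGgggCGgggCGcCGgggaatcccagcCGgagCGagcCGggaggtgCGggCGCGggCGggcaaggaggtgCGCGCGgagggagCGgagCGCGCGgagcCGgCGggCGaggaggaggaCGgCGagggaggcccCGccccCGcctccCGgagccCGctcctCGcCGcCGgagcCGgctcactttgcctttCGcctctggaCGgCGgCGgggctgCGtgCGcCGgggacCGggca

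The Kcna2 window held 31 CpG and was covered by H3K27me3 peaks over all 300 bases with 15000 EMPs, and over 0 bases with 500 EMPs. The Kcna3 window held 37 CpG and no base of it was covered in either library. The Kcna10 window held 0 CpG and was not covered either. The Kcnc2 window held only 5 CpG, yet all 300 bases were covered in both libraries. The Kcng3 window, with 49 CpG the densest of the members, had 0 covered bases in both libraries although peaks lay on both sides of it with 15000 EMPs. Over the 32851 promoter windows of the table the median was 7 CpG (quartiles 3 and 20), and 94.6% held at least 1. The motif searched was CG, which reads the same on both strands. A RefSeq window was found for 42 of the 56 members, 3 of them more than 1 kb from the GENCODE start used below. Over these 42 the median was 17 CpG in the 33 members marked with 15000 EMPs and 18 in the 9 unmarked ones.

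H3K27me3 lay at most of the listed genes. With 500 EMPs 30 of 56 members were marked (53.6%, interval 40.7% to 65.98%), against 9.66% of all protein-coding genes. With 15000 EMPs 45 of 56 were marked (80.4%, interval 68.2% to 88.7%), against 16.6% of all. All 30 members marked with 500 EMPs were among the 45. Nesting was near complete for all protein-coding genes too. Of the 2118 marked with 500 EMPs, 2084 were marked in both libraries (9.51% of all protein-coding genes). No member was marked with 500 EMPs alone, 15 were marked with 15000 EMPs alone, and 11 were unmarked in both. Of the members marked with 15000 EMPs 66.7% were also marked with 500 EMPs, beside 57.3% of all marked protein-coding genes.

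**Figure D1:**
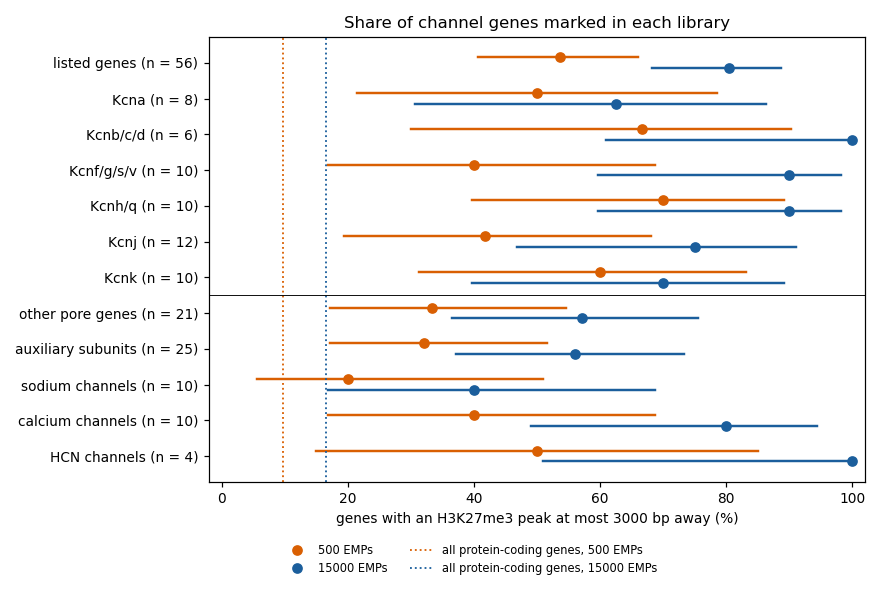
Share of genes with an H3K27me3 peak at most 3000 bp away (horizontal axis, %), with points for 500 EMPs (orange) and 15000 EMPs (blue), 95% Wilson intervals as bars and dotted lines for all protein-coding genes (9.66% and 16.6%). All 6 subfamilies lie to the right of both lines with 15000 EMPs, and their intervals overlap each other.

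The subfamilies ranged from 62.5% to 100% marked with 15000 EMPs and from 40% to 70% with 500 EMPs. All 6 Kcnb, Kcnc and Kcnd genes were marked with 15000 EMPs and 4 of 6 with 500 EMPs. Kcnh and Kcnq genes followed with 9 of 10 and 7 of 10, and the silent subunits with 9 of 10 and 4 of 10. Kcnj genes were marked in 9 of 12 and 5 of 12, Kcnk genes in 7 of 10 and 6 of 10, and Kcna genes in 5 of 8 and 4 of 8. The intervals of all 6 subfamilies overlapped in each library, so an order among them was not resolved. The lists differed by 5 genes among the silent subunits, and by 1 gene each among Kcna and Kcnk.

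The shares of the other potassium channel genes were lower in both libraries, and the intervals met. Of the 21 other pore-forming genes 7 were marked with 500 EMPs and 12 with 15000 EMPs (57.1%, interval 36.6% to 75.5%). Of the 25 auxiliary subunit genes 8 and 14 were marked (56.0%, interval 37.1% to 73.3%, with 15000 EMPs). Taking listed and other pore-forming genes together, 37 of 77 were marked with 500 EMPs (48.1%) and 57 of 77 with 15000 EMPs (74.0%, interval 63.3% to 82.5%). Sodium channel genes were marked in 2 and 4 of 10, calcium channel genes in 4 and 8 of 10, and the pacemaker HCN channel genes in 2 and 4 of 4. With 15000 EMPs the HCN share thus exceeded that of the listed genes. None of these differences was tested, since the lists were written with the results known.

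To set the members side by side, the bases under peaks were summed over a window of 6001 bp that reached 3 kb to either side of each gene start, whichever gene a peak was paired with. Among marked members, peaks not paired with the member added bases at Kcnd3 alone with 500 EMPs and at Kcnk3 alone with 15000 EMPs. All 30 members marked in both libraries had more covered bases with 15000 EMPs, with a median of 4684 bp against 1035 bp with 500 EMPs and a median ratio of 4.69. The 15 members marked with 15000 EMPs alone had a median of 3213 bp there. Over the 3529 protein-coding genes marked with 15000 EMPs whose start lay within 3 kb of a peak the median was 2825 bp (quartiles 1422 and 4391 bp), beside 4035 bp for the 45 marked members. With 500 EMPs the 30 marked members had a median of 1035 bp, beside 810.5 bp for 2060 genes.

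**Figure D2:**
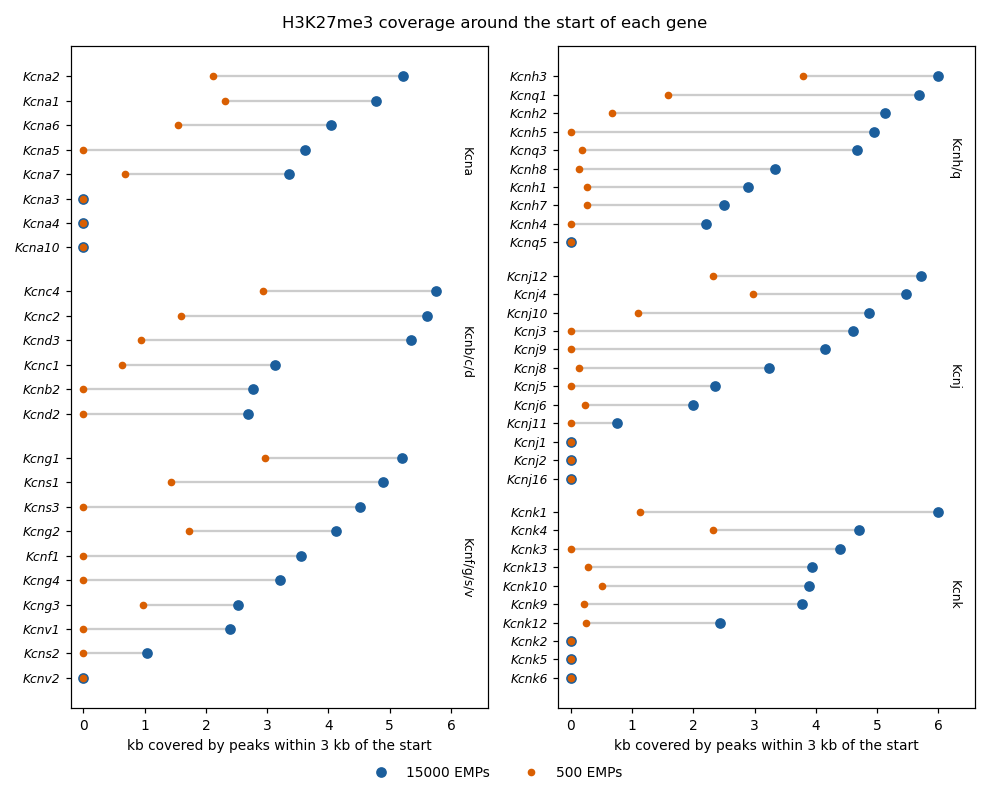
Bases covered by H3K27me3 peaks up to 3 kb on either side of the start of each of the 56 genes (horizontal axis, kb), with 15000 EMPs (large blue points) and 500 EMPs (small orange points). Each gene marked in both libraries lies further right with 15000 EMPs, Kcnh3 and Kcnk1 reach the full window, and the 11 unmarked genes sit at 0.

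Among the Kcna genes, which encode the Shaker-type voltage-gated channels, the widest peak lay over Kcna1. With 15000 EMPs 1 peak of 8065 bp (chr6:126640102-126648166) spanned the whole gene, its only coding exon included. With 500 EMPs 5 separate peaks of 137 to 1646 bp lay within 3 kb of the gene, of which 1 of 1495 bp crossed the start and 1 of 382 bp lay downstream of the gene. The window of Kcna1 was covered over 2308 bp with 500 EMPs, the most in the subfamily, and over 4783 bp with 15000 EMPs. Kcna2 had 2122 bp with 500 EMPs and led with 15000 EMPs at 5216 bp, where 1 peak of 6060 bp crossed its start. Kcna6 had 1546 and 4035 bp and Kcna7 680 and 3358 bp. Kcna5, a channel of atrial muscle, had 0 and 3616 bp. With 15000 EMPs the mark covered 88.0% of the coding sequence of Kcna5, 81.4% of Kcna7, 59.2% of Kcna2 and 56.7% of Kcna6. Each of these genes has 1 coding exon except Kcna7, which has 2. The median over the 5 marked Kcna genes was 81.4%, against 2.46% over the 9 marked Kcnh and Kcnq genes, which have 11 to 16 coding exons. Over all 10 marked members with 1 coding exon it was 46.6%, and over the 35 with 2 or more 23.5%. Both groups ranged from 0% to 100%, and a link to exon number was not tested.

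Kcna3, Kcna4 and Kcna10 were unmarked. Kcna3 encodes Kv1.3, a channel well known from lymphocytes. Its start lay 62762 bp from the nearest peak with 15000 EMPs, and no peak in either table was paired with it. Kcna10 was paired with a peak 21653 bp away and Kcna4 with a peak 115173 bp away. On chromosome 3 Kcna3, Kcna2 and Kcna10 form a cluster in which Kcna2 starts 65.0 kb from Kcna3 and 81.9 kb from Kcna10, and only Kcna2 was marked. On chromosome 6 the 3 clustered genes Kcna5, Kcna1 and Kcna6, with starts 111.0 and 94.3 kb apart, were all marked with 15000 EMPs. Neighbours in 1 cluster thus carried the mark together in one case and not in the other, and no peak in either list was paired with more than 1 member.

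**Figure D3:**
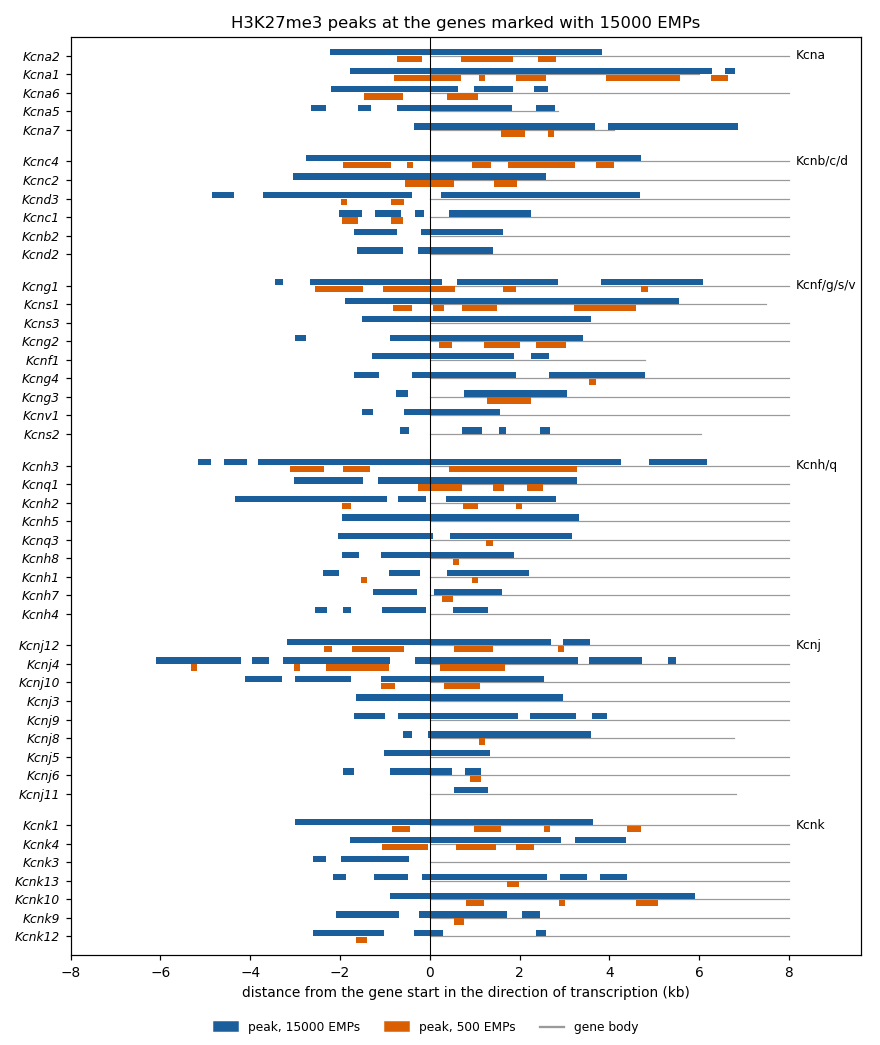
Peaks that the tables pair with the 45 genes marked with 15000 EMPs, by distance from the gene start (horizontal axis, kb, in the direction of transcription): blue bars for 15000 EMPs, orange bars for 500 EMPs and grey lines for the gene body. With 15000 EMPs 35 starts lie inside a blue bar, whereas the orange bars are short pieces that mostly lie to one side of the start.

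In the Kcnb, Kcnc and Kcnd group, Kcnc4 led on both measures. Kcnc genes encode the Kv3 channels of fast-spiking neurons, and Kcnd genes the Kv4 channels of the transient outward current. Kcnc4 carried 1 peak of 7446 bp across its start with 15000 EMPs (chr3:107454853-107462298), and 4 peaks of 146 to 1508 bp within 3 kb with 500 EMPs. Its window was covered over 2929 and 5747 bp. Kcnc2 was among the 3 members with a peak across the start in both libraries, of 1078 bp with 500 EMPs (chr10:112270579-112271656) and of 5645 bp with 15000 EMPs (chr10:112268077-112273721). Kcnd3 had 936 and 5343 bp covered, with 512 of the 936 bp in peaks not paired with it, and Kcnc1 626 and 3125 bp. At both of these the gene start stayed outside every peak in both libraries, 261 and 127 bp from the nearest with 15000 EMPs, although another annotated protein-coding start of each lay inside a 15000-EMP peak. Kcnb2, a Kv2 channel, and Kcnd2 were marked with 15000 EMPs alone, over 2769 and 2695 bp.

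The silent subunits, which alter the Kv2 channels they join, included 4 genes marked in both libraries, namely Kcng1, Kcng2, Kcng3 and Kcns1. Kcns1 had the widest peak, 7437 bp across the start with 15000 EMPs (chr2:164165565-164173001), where 500 EMPs gave 4 peaks of 233 to 1380 bp. The window of Kcns1 was covered over 1436 and 4889 bp. Kcng1 was the most covered, with 2962 and 5197 bp, and was the only gene whose GENCODE start lay inside a 500-EMP peak (1597 bp) that the authors' table placed upstream. Kcng2 had 1718 and 4128 bp covered. Kcng3 had 972 and 2530 bp, and its nearest 15000-EMP peak ended 476 bp from the start. Kcnf1, Kcng4, Kcns2, Kcns3 and Kcnv1 were marked with 15000 EMPs alone, over 1036 bp in Kcns2 to 4513 bp in Kcns3. Kcng4 came closest to a call with 500 EMPs, with a peak at 3548 bp, just past the limit. The next gene inside it was Kcnk13 at 1710 bp. Kcnv2 was unmarked, with a peak 10023 bp away.

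Of the Kcnh genes all 7 were marked with 15000 EMPs and 5 with 500 EMPs. They fall into the eag (Kcnh1, Kcnh5), erg (Kcnh2, Kcnh7) and elk (Kcnh3, Kcnh4, Kcnh8) branches, and every listed gene of each branch was marked with 15000 EMPs. Kcnh3 had the widest peak of all members in both libraries, 2863 bp with 500 EMPs (chr15:99225285-99228147) and 8082 bp with 15000 EMPs (chr15:99221039-99229120). Its window was covered over 3799 and 6001 bp, the latter being every base. Kcnh2, the erg channel that repolarises heart muscle, had 682 and 5129 bp covered, and Kcnh7 259 and 2505 bp. Kcnh5 and Kcnh4 were marked with 15000 EMPs alone, over 4949 and 2200 bp. Hcrt starts within 3 kb of Kcnh4, and the 2 farther Kcnh4 peaks (179 and 265 bp) were paired with Hcrt as well, whereas the 2 nearer ones (778 and 978 bp) were paired with Kcnh4 alone. Other 15000-EMP peaks shared with a gene outside the list were the peak of 4419 bp at Kcnd3, which crossed the start of Kcnd3os, 2 peaks at Kcnh8 (371 and 2963 bp) with Gm27217, and a peak of 2907 bp at Kcna7 with Ntf5.

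With 500 EMPs Kcnh1, Kcnh8 and Kcnj8 were marked only by peaks of 137 bp, the smallest width in that list, which 11 of the 71 member peaks had (15.5%, beside 14.7% of all peaks within 3 kb of a gene). The 1 such peak at Kcnh8 lay in an intron 512 bp past the start, at chr17:52603221-52603357 on the plus strand, and was also paired with Gm27217. It is shown, with its 4 CpG in capitals, because it alone carried the call.
Kcnh8 peak: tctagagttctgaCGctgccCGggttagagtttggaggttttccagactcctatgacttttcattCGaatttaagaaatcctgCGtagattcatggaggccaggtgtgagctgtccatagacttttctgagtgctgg

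With 15000 EMPs the same 3 genes had 2897, 3334 and 3240 bp covered, for Kcnh1, Kcnh8 and Kcnj8, and a 15000-EMP peak of 2963 bp crossed the start of Kcnh8. Among the Kcnq genes, Kcnq1, a cardiac channel gene within an imprinted domain, had a peak across its start in both libraries, of 995 bp with 500 EMPs (chr7:143106093-143107087) and 4437 bp with 15000 EMPs (chr7:143105202-143109638). Its window was covered over 1581 and 5684 bp. Kcnq3, a subunit of the neuronal M-current, had 177 and 4670 bp. Kcnq5, which belongs to the same current, was unmarked, and its start lay 569612 bp from the nearest 15000-EMP peak.

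Inward rectifiers are given by branch. All 4 Kir3 genes (Kcnj3, Kcnj5, Kcnj6 and Kcnj9), which encode the G protein-gated channels, were marked with 15000 EMPs, over 1989 to 4612 bp, but only Kcnj6 with 500 EMPs, over 234 bp. The Kir2 genes Kcnj4 and Kcnj12 were marked in both, with 2971 and 5464 bp at Kcnj4 and 2322 and 5719 bp at Kcnj12. At Kcnj12 a 15000-EMP peak of 5879 bp crossed the start (chr11:61019377-61025255), the widest of the subfamily. The third listed Kir2 gene, Kcnj2, was unmarked, with 728967 bp between its start and the nearest peak. Both pore subunits of the ATP-sensitive channels were marked with 15000 EMPs, Kcnj8 over 3240 bp and Kcnj11 over 750 bp, the smallest cover among marked members. Kcnj10, a glial channel, had 1098 and 4868 bp, and its neighbour Kcnj9, starting 11.9 kb away, 0 and 4144 bp. Kcnj16, which pairs with Kcnj10, was unmarked and lay 630836 bp from the nearest peak. Kcnj1, a kidney channel, was unmarked with a peak at 9783 bp, while Kcnj5, 28.1 kb away, was marked.

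Tandem-pore genes were marked unevenly too. Kcnk10 had the widest peak, 6792 bp with 15000 EMPs (chr12:98572403-98579194), and 504 and 3885 bp of its window were covered. Kcnk1 had the fullest cover with 15000 EMPs, 1125 bp with 500 EMPs and then all 6001 bp. Kcnk4 had 2319 and 4698 bp, and its 15000-EMP peak of 4698 bp crossed the start. Both THIK genes were marked in both libraries, Kcnk12 over 244 and 2438 bp and Kcnk13 over 278 and 3935 bp. Of the 3 listed genes for acid-sensitive TASK channels 2 were marked with 15000 EMPs, and Kcnk5 was not. Kcnk3 and Kcnk9 had 0 and 4387 bp, and 222 and 3769 bp. At Kcnk3 only 1785 of the 4387 bp, all upstream, lay in peaks that the table paired with the gene, and the other 2602 bp lay in a peak not paired with it. Kcnk5 and Kcnk6 were unmarked, 385811 and 69981 bp from the nearest peak.

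Kcnk2, which encodes the mechanically gated TREK-1 channel, was unmarked by the rule and yet carried peaks at another start. A 15000-EMP peak of 4961 bp (chr1:189340626-189345586) and a 500-EMP peak of 325 bp lay inside the gene, 56686 and 61170 bp from its nearer end. In GENCODE's basic set 4 protein-coding transcripts begin 58081 to 58918 bp into the gene, and all 4 of their starts lay within the 15000-EMP peak. When any annotated protein-coding start was allowed, 46 members were marked with 15000 EMPs (82.1%) and 31 with 500 EMPs (55.4%), Kcnk2 being the gene added in both. The transcript in use in EMPs is not known from these files.

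The limit of 3 kb had little to sort among members in the 15000-EMP list. The largest distance of a marked member was 544 bp, at Kcnj11, and the next member outside was Kcnj1 at 9783 bp. Of the 11 unmarked members 6 were paired with no peak at any distance with 15000 EMPs, namely Kcna3, Kcnj2, Kcnj16, Kcnk5, Kcnk6 and Kcnq5.

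Peaks at members were short with 500 EMPs and long with 15000 EMPs. The 71 peaks within 3 kb of members with 500 EMPs had a median width of 401 bp (quartiles 227.5 and 856 bp, longest 2863 bp). The 100 such peaks with 15000 EMPs had a median of 1395.5 bp (quartiles 424.25 and 2916 bp, longest 8082 bp). These widths were near those of all peaks within 3 kb of a gene, 399.5 and 1257 bp. By subfamily the medians ran from 250.5 bp (Kcnh and Kcnq) to 715 bp (silent subunits) with 500 EMPs, and from 990 bp (silent subunits) to 1748 bp (Kcnb, Kcnc and Kcnd) with 15000 EMPs. With 15000 EMPs 11 peaks exceeded 5 kb (11%, beside 9.35% of all), 1 each at Kcna1, Kcna2, Kcnc2, Kcnc4, Kcns1, Kcns3, Kcnh3, Kcnh5, Kcnj12, Kcnk1 and Kcnk10.

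The shorter peaks lay within the longer ones. Of the 71 member peaks with 500 EMPs 69 overlapped a 15000-EMP peak (97.2%, interval 90.3% to 99.2%), and 67 of the 71 did so over at least 50% of their width. In the other direction 41 of 100 overlapped a 500-EMP peak (41%, interval 31.9% to 50.8%), but only 5 did so over at least 50% of their width. Of these 41 peaks 20 held 2 or more 500-EMP peaks, and at most 5. Overlap was counted for member peaks alone, so it is not shown to be particular to them. At the level of genes, 2084 of the 2118 protein-coding genes marked with 500 EMPs were marked in both libraries.

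The location categories of the authors' table moved with the widths. With 500 EMPs 43 of 71 member peaks lay inside the gene (60.6%, beside 46.3% of all table rows within 3 kb), 23 upstream (32.4%, beside 37.8%), 3 across the start (4.23%, beside 6.31%) and 2 downstream. With 15000 EMPs 34 of 100 crossed the start (34%, beside 25.3%), 35 were upstream (35%, beside 28.6%), 26 inside (26%, beside 36.4%) and 3 downstream. A further peak included the whole of Kcna1 and 1 overlapped the end of Kcna7. The 3 members with a peak across the start with 500 EMPs, Kcna1, Kcnc2 and Kcnq1, had one with 15000 EMPs as well. A few peaks were near the gene but not its start, since 5 of 71 and 7 of 100 lay over 3 kb from the start. No member owed its call to these, as the GENCODE start of every marked member also lay at most 3 kb from a peak.

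**Figure D4:**
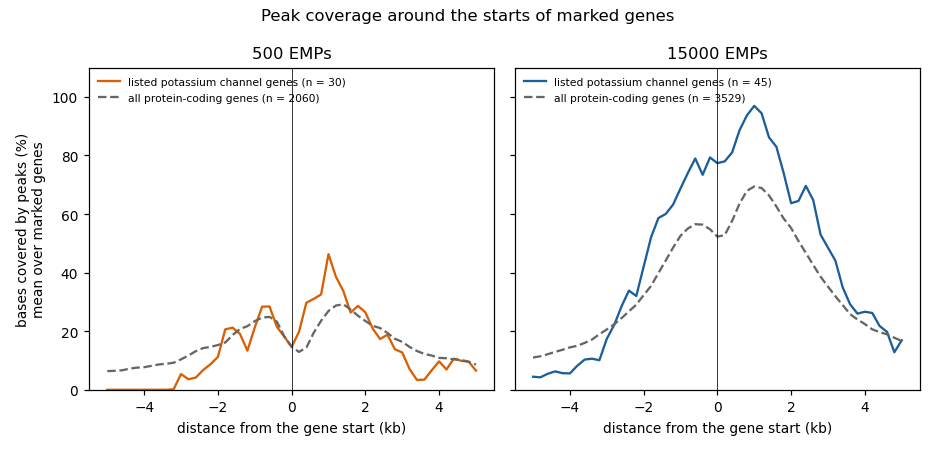
Mean share of bases covered by peaks (vertical axis, %) in 200-bp windows by distance from the gene start (horizontal axis, kb), for marked members (solid) and all marked protein-coding genes with a peak within 3 kb of the start (dashed), per library. Members reach 46.3% and 96.9% at 1000 bp past the start, with 14.6% and 77.4% at the start itself.

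Along the window the cover was highest past the start. With 15000 EMPs it reached 96.9% of bases in the 200-bp window centred 1000 bp past the start of the 45 marked members, against 77.4% at the start. The marked protein-coding genes whose start lay at most 3 kb from a peak showed 69.4% and 52.3% at these positions. With 500 EMPs the marked members had 46.3% at 1000 bp and 14.6% at the start, and those genes 26.9% and 14.6%. More bases were covered after the start than before it in 35 of the 45 members with 15000 EMPs and in 23 of the 30 with 500 EMPs. Over the marked protein-coding genes cover was 69.4% at 1000 bp past and 52.6% at 1000 bp before the start with 15000 EMPs. With 500 EMPs it was 26.9% and 23.4%, so these genes leaned the same way. The start lay inside a peak in 35 of 45 marked members with 15000 EMPs (77.8%, beside 51.9% of the 3529 marked genes with a start at most 3 kb from a peak), and in 4 of 30 with 500 EMPs (13.3%, beside 14.5% of 2060 such genes).

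CpG content was then read from the reference genome as the observed over expected CpG ratio of the 500 bp on either side of the GENCODE start, which the rule did not use. The median was 0.632 for the 30 members marked in both libraries, 0.516 for the 15 marked with 15000 EMPs alone and 0.453 for the 11 unmarked, beside 0.552 for all protein-coding genes. The ranges overlapped widely, and no test was made. Unmarked members spanned 0.127 (Kcna10) to 0.836 (Kcna3), and 5 of them (Kcna3, Kcnk6, Kcnq5, Kcnk5 and Kcnk2) had ratios of at least 0.6. Among members with a ratio of at least 0.6, 23 of 28 were marked with 15000 EMPs (82.1%, beside 20.6% of all such genes), among those from 0.3 to 0.6 it was 17 of 19 (89.5%, beside 25.3%), and among those under 0.3 it was 5 of 9 (beside 5.49% of all). The middle class thus had the highest share with 15000 EMPs, for members and for all genes. With 500 EMPs the members marked were 17 of 28, 11 of 19 and 2 of 9 in the same order of classes (60.7%, 57.9% and 22.2%). Of all genes in these classes 13.0%, 13.8% and 2.47% were marked with 500 EMPs. The upper classes thus lay close together, and their order differed between members and all genes.

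**Figure D5:**
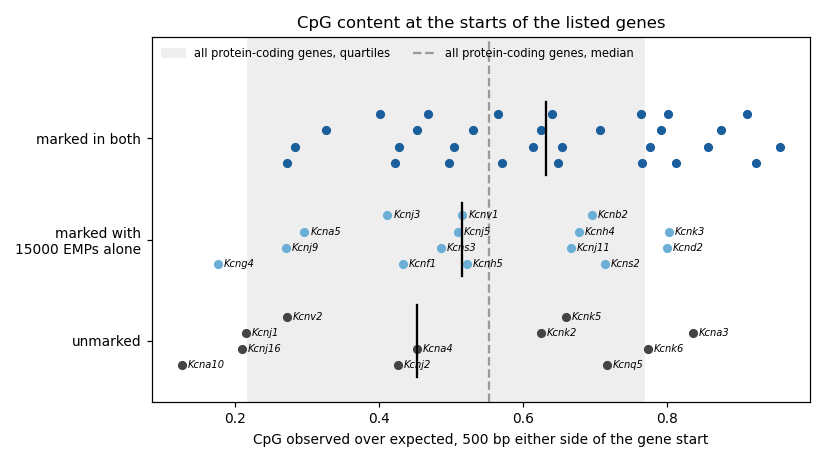
CpG observed over expected in the 500 bp on either side of the gene start (horizontal axis), 1 point per gene, for members marked in both libraries, with 15000 EMPs alone or in neither, with black bars at the medians (0.632, 0.516 and 0.453). The grey band and dashed line give the quartiles and the median of all protein-coding genes (0.552), and the unmarked genes run from Kcna10 at 0.127 to Kcna3 at 0.836.

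The marked members split further by where the start lay. In the 35 whose start was inside a 15000-EMP peak the median ratio was 0.516 (0.177 to 0.922). In the 10 whose start lay outside every 15000-EMP peak it was 0.797 (0.625 to 0.957). All 10 had ratios of at least 0.6, beside 13 of the 35 (37.1%). These 10 were Kcnc1, Kcnd3, Kcng3, Kcnh1, Kcnh2, Kcnh4, Kcnh7, Kcnj11, Kcnk3 and Kcns2, and their starts were 76 to 545 bp from the nearest peak. In 3 of them, Kcnc1, Kcnd3 and Kcnh7, another annotated protein-coding start lay inside a 15000-EMP peak. Over the 3529 marked protein-coding genes with a start at most 3 kb from a peak the medians were 0.611 for 1832 genes with the start inside a peak and 0.686 for 1697 with the start 1 to 3000 bp away. Ratios of at least 0.6 were found in 52.6% of the 1832 and in 64.3% of the 1697. The split was seen after the values were known and is a description of these 2 lists.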

How the data were processed

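CUT&RUN for H3K27me3 was performed on 500 and on 15000 EMPs, 1 library each. The authors aligned reads to mm10 with Bowtie2 version 2.2.1, called broad peaks with MACS2 version 2.1.2 per library and paired peaks with genes by ChIPpeakAnno. Under each of their 2 p-value thresholds, the command they list carries the name of the library with the other number of cells, and the labels and the methods name different library kits and instruments. The deposited lists, taken as labelled, give peak starts and ends and a distance to a gene in bp, with no score, count or signal, so depth cannot be read from the files and could not be corrected for. The study states a lower depth and alignment rate for 500 EMPs. The members and gene lists were chosen with earlier results of these data known.

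Peak starts were taken as 1-based and ends from the peak lists. Gene starts, coding sequence and protein-coding status came from GENCODE vM21 and sequence from GRCm38.p6, the assembly of mm10. Of the list genes, 1 (Kcne5) was matched through its symbol Kcne1l. A gene was marked at a table distance of at most 3000 bp. Covered bases were summed over a window of 6001 bp, and peaks overlapped when they shared at least 1 bp. Shares carry 95% Wilson intervals. Every member was accounted for, and per subfamily the member with the widest 15000-EMP peak and the most covered member were named with their covered bases. Python 3.11.15 with pandas 2.3.3, numpy 2.4.6 and pysam 0.24.0 was used, and the functions for intervals and overlaps were checked on simulated data. Other limits, widths, location rules and gene identifiers were tried as alternatives. The marked genes among the other pore-forming channels are counted but their names are not reported here.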

Additional observations from a re-analysis of the deposited data

How the results depend on the processing

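No paired analysis was possible because each cell number had 1 library. Of 128 alternative values for 22 results, 112 stayed within the counting interval or spread of the reported value and 16 moved. The largest moves came from counting only peaks across the gene start. The share of marked members then fell to 5.36% with 500 EMPs, in both libraries to 5.36% and with 15000 EMPs to 62.5%. By subfamily it was 12.5% (Kcna), 16.7% (Kcnb, Kcnc and Kcnd), 0% (silent subunits), 10% (Kcnh and Kcnq), 0% (Kcnj) and 0% (Kcnk) with 500 EMPs, and 50% for Kcnh and Kcnq genes with 15000 EMPs. Only 8.57% of the members so marked with 15000 EMPs were then marked with 500 EMPs. Joining peaks within 3000 bp raised the median width to 2697 bp with 500 EMPs and to 5205 bp with 15000 EMPs. A limit of 1000 bp gave a median of 2304 bp with 15000 EMPs and 50% of peaks across a start. When 50% of the peak had to overlap, 5% of the 15000-EMP peaks met a 500-EMP peak. The alternative of any protein-coding start was chosen after seeing the data. The study states a lower depth and alignment rate for 500 EMPs, and the peak lists allow no correction for either, so a missing 500-EMP peak does not show that the mark was absent.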
